A study of Mus musculus with 29 samples.

Results

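The 39 genes described here are interferon-stimulated genes of the mouse, chosen by name from a list with earlier results of these data known. All 39 were found among the 30818 gene symbols measured, and all 39 passed the minimum level used for testing (a normalized count of 10 or more in at least 4 of 29 libraries), as did 19387 genes in all. They were followed in the mammary fat of C57BL/6N mice with a genotype given as wt, in 6 treatment groups. The LFCR, MCR and ICR groups were made obese on the D12492 diet with 60% fat and then lost weight on calorie restriction (CR). LFCR (5 libraries) was a low-fat diet restricted by 30%, MCR (4 libraries) a Mediterranean-style diet restricted by 30%, and ICR (5 libraries) an intermittent restriction. LFD mice (5 libraries) were obese mice moved to a low-fat diet without restriction. Obese mice (5 libraries) stayed obese, and Control mice (5 libraries) were kept on the D12450J diet throughout. Mice of every group carried E0771 cells, a mouse mammary cancer line, injected 25 weeks after the start into mammary fat pad 4, and the tissue sequenced was fat pad 9 of the opposite side. No untumored mice were analysed here, and the labels call the tissue normal although their titles begin with "tumor". Lymph node transcripts set 8 libraries apart. Glycam1, a product of lymph node high endothelial venules, was at most 6.93 (log2) in LFCR 1 and 3, MCR 1, 3 and 4, LFD 1, and Obese 1 and 5, and at least 11.6 in the other 21, and the main counts are given with and without these 8.

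Interferons are secreted proteins that cells release on sensing viral or misplaced nucleic acid. Type I interferons bind the receptor of Ifnar1 and Ifnar2, the kinases Jak1 and Tyk2 then pass the signal to a complex with Stat2 and Irf9, which binds interferon-stimulated response elements (ISREs) in the promoters of the genes they switch on. Type II interferon, encoded by Ifng, acts through another receptor and mainly on genes with gamma-activated sites (GAS). The genes switched on include sensors of nucleic acid, enzymes and binding proteins that block viral replication, and factors that amplify or end the response. In fat, resident and recruited macrophages, lymphocytes, stromal cells and adipocytes can all express such genes, and bulk RNA cannot tell fewer cells of a type from less RNA per cell.

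The promoters of 6 genes are shown first, because they cover the combinations of motif and response described below. The sequences are the 250 bases before the start site from RefSeq on GRCm38.p6, on the strand of the gene, and capitals mark an ISRE-like motif, GAAANNGAAA or its reverse complement TTTCNNTTTC. Oas1a, Isg15, Ifit1 and Bst2 hold the motif and were lower after LFCR than in Obese mice. Oasl1 was also lower there but has no such motif in this window, and Igtp has one but was not called there. The windows lie at chr5:120907526-120907775 for Oas1a (minus strand), chr4:156200819-156201068 for Isg15 (minus), chr19:34640639-34640888 for Ifit1 (plus), chr8:71537473-71537722 for Bst2 (minus), chr5:114922990-114923239 for Oasl1 (plus) and chr11:58199306-58199555 for Igtp (plus).
Oas1a: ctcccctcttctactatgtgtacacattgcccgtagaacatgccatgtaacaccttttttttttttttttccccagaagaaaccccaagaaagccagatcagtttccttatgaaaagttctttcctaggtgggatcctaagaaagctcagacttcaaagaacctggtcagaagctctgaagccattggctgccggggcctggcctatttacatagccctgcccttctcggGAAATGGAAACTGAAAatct
Isg15: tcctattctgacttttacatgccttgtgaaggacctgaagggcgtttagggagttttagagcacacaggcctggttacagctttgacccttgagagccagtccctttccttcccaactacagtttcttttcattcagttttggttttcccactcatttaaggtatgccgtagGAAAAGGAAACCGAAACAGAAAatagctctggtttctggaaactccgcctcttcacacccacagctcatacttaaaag
Ifit1: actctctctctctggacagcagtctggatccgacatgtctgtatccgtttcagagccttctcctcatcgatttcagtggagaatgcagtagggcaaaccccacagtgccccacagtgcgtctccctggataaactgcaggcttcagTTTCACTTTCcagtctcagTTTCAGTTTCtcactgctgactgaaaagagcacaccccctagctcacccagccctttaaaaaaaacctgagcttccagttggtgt
Bst2: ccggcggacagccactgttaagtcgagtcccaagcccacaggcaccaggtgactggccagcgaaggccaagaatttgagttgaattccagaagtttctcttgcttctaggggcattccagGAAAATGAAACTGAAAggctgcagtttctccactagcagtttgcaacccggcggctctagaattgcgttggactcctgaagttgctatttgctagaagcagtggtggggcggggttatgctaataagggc
Oasl1: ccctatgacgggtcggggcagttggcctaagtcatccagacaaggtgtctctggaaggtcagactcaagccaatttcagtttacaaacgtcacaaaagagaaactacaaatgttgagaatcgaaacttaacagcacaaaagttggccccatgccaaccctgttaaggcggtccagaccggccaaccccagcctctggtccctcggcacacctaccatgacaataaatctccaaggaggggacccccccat
Igtp: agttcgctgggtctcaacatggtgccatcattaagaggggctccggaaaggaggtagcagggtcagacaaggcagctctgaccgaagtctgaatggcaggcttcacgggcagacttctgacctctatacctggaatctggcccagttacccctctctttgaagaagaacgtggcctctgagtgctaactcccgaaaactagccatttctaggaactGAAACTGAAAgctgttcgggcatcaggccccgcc

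RefSeq windows from 250 bases before to 50 bases after the start were matched for 29 of the 39 genes. The ISRE-like motif, searched on both strands, was present for 17 of these 29 genes (58.6%), against 3.99% of 27025 genes with such a window. In Oas1a a pair of overlapping copies began 20 and 14 bases before the start site, and in Isg15 a run of 3 copies began 78, 72 and 66 bases before it. A GAS-like motif, TTCNNNGAA, was present for 7 of the 29 genes (24.1%), against 9.55% of all genes, and it overlapped an ISRE-like motif in the windows of Bst2 and Ifitm3. After LFCR, 9 of the 17 genes with the ISRE-like motif and 9 of the 12 genes without it were called lower than in Obese mice. Of all genes tested 9.42% were lower there. The difference between genes with and without the motif was not tested. A match is a description of letters and not a site shown to be bound, and a window without one says nothing about the factor.

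Expression was read as size-factor-normalized counts, recovered by undoing the log2 transform of the deposited values, and differences were tested on those log2 values. In Control mice, and per kilobase of exon, the most abundant of the 39 was Ifitm3, which blocks entry of viruses into cells, at 5318 normalized counts per kilobase. Ifi27, a small hydrophobic protein, followed at 3778 and the tetherin gene Bst2 at 1522. Slfn4, a myeloid gene of the Schlafen family, was lowest at 56.1 normalized counts per kilobase. Averaged over the 39 genes, each as its log2 value minus its own mean over 29 libraries, the libraries lay at -0.42 ± 0.17 in LFCR, -0.23 ± 0.24 in MCR and -0.32 ± 0.17 in ICR. The same mean was 0.37 ± 0.27 in LFD, 0.21 ± 0.22 in Obese and 0.35 ± 0.39 in Control (SD, n = 4 for MCR and 5 elsewhere). Of the 14 libraries of the CR diets only MCR 4, at 0.01, lay above 0, and of the 15 others only Obese 4 (-0.09) and Control 3 (-0.10) lay below it. Control 4 (0.95) and LFD 4 (0.81) were the highest libraries, with 18 and 11 of the 39 genes at their maximum there. Across the 6 groups 30 of the 39 genes varied by limma's moderated F-test, where a gene is called if its Benjamini-Hochberg adjusted p is under 0.05; 33.3% of all genes tested did.

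**Figure D1:**
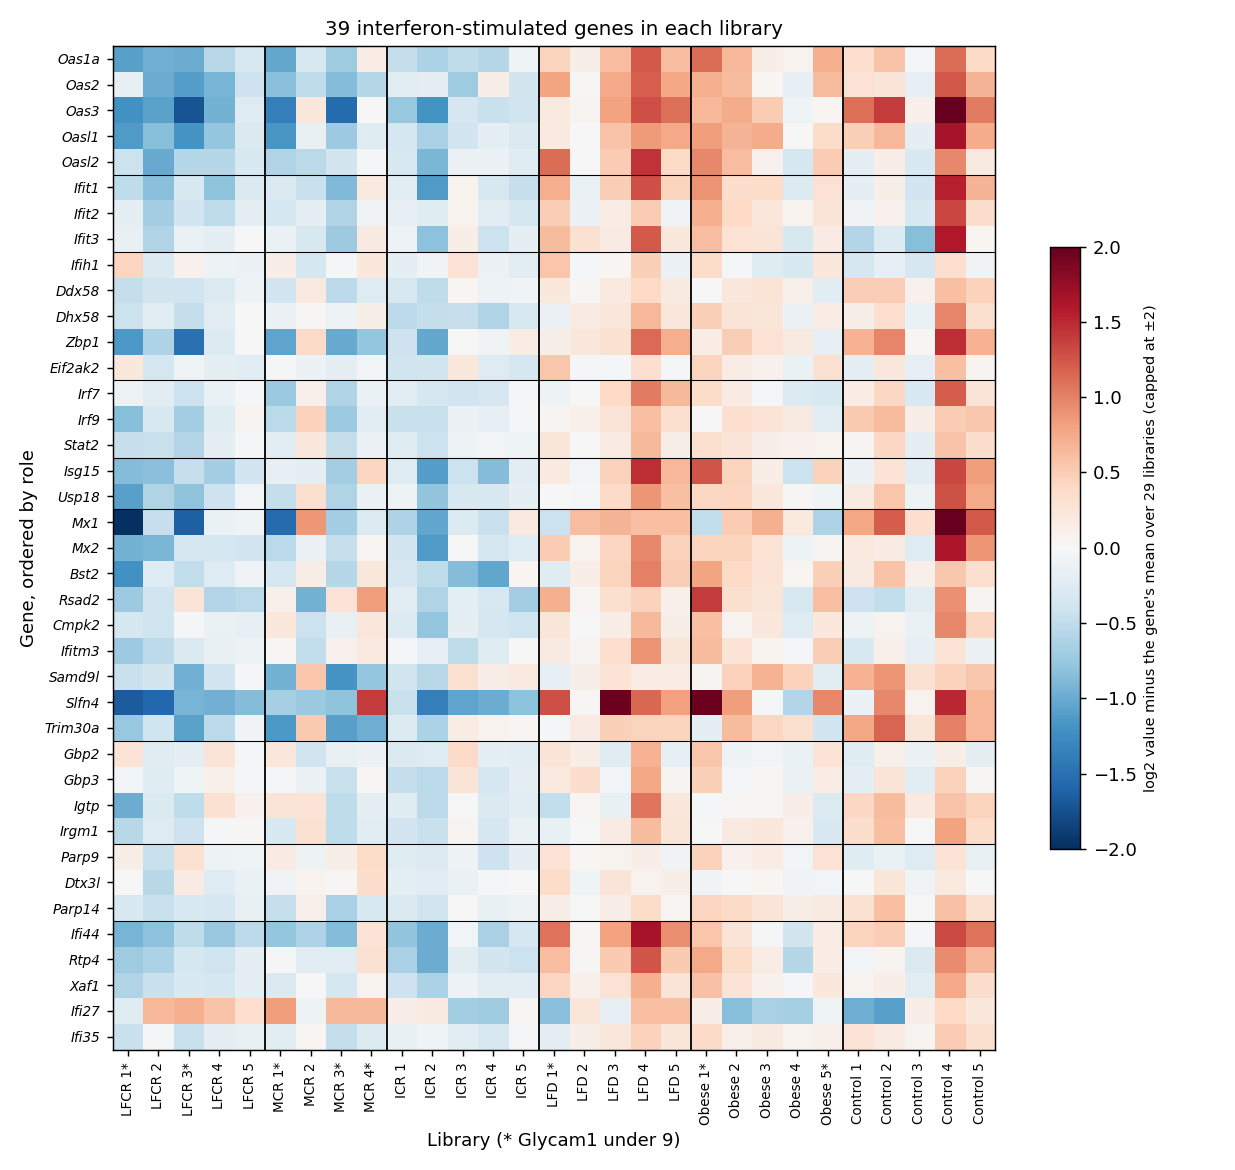
Heat map of the 39 genes (rows, ordered by role with lines between roles) in each of 29 libraries (columns, by group), coloured by the log2 value minus the gene's mean over all libraries. The LFCR, MCR and ICR columns are mostly blue and the LFD, Obese and Control columns mostly red, with Control 4 and LFD 4 the darkest red. Ifi27 differs from the others, with its highest group means in LFCR and MCR but not in ICR.

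Obesity alone, and weight loss without restriction, gave no call among these genes. Obese against Control called 0 of the 39 by limma, where 12.9% of all genes tested were called in either direction, and 7 of the 39 had an unadjusted p under 0.05. The median log2 difference of the 39 was -0.09, beside -0.03 over all genes. LFD against Obese called 0 of the 39, where 5.98% of all genes were called, with 1 of the 39 under an unadjusted p of 0.05 and a median difference of 0.15 beside -0.0025 over all genes. LFD against Control called 0 of the 39 and 0.00% of all genes, with 2 of the 39 under an unadjusted p of 0.05. With voom on recovered reads these counts were 1 (Mx1), 0 and 0. Beneath the missing calls the values were spread widely, and Ifi44, the gene with the largest difference of LFD from Obese, stood 0.79 ± 0.27 higher on the log2 scale (SE, adjusted p = 0.0819).

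Calorie restriction went with lower interferon-stimulated transcripts. In the main limma fit, with all 29 libraries and no added term or weights, no member was called higher in any comparison. LFCR against Obese called 24 of the 39 lower, where 9.42% of all genes tested were lower. MCR against Obese called 6 lower (5.69% of all genes) and ICR against Obese 8 lower (5.23% of all genes). The median log2 difference of the 39 was -0.62 for LFCR, -0.40 for MCR and -0.48 for ICR, beside -0.04, -0.04 and 0.00 over all genes. The sign was negative for 38 of 39 genes in LFCR, 37 in MCR and 38 in ICR. These comparisons share the 5 Obese libraries. In 15 of the 39 genes every LFCR library lay below every Obese library, which 6.23% of all genes did. The same held for 5 genes in MCR (4.56% of all genes) and 10 in ICR (4.52%). Without the 8 libraries poor in lymph node transcripts 9 were called against Obese in LFCR (8 lower, and Ifi27 higher), 5 in ICR (all lower) and 0 in MCR, which then had 1 library. Leaving out single libraries moved the LFCR count to 15 without LFCR 1 (14 lower, and Ifi27 higher) or Obese 2. It moved the MCR count to 2 without MCR 1 and to 14 without MCR 2 (13 lower, and Ifi27 higher). The ICR count became 3 without ICR 2 or Obese 1, 5 without ICR 1 and 16 without Obese 4. With the mean of 11 macrophage genes as a covariate the counts were 0 for LFCR, 0 for MCR and 2 for ICR. In that fit the SE also widened in LFCR, where Oasl1 stood at -1.09 ± 0.35. The shares of all genes called with libraries left out or with the covariate are not given here, so these counts have no background.

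**Figure D2:**
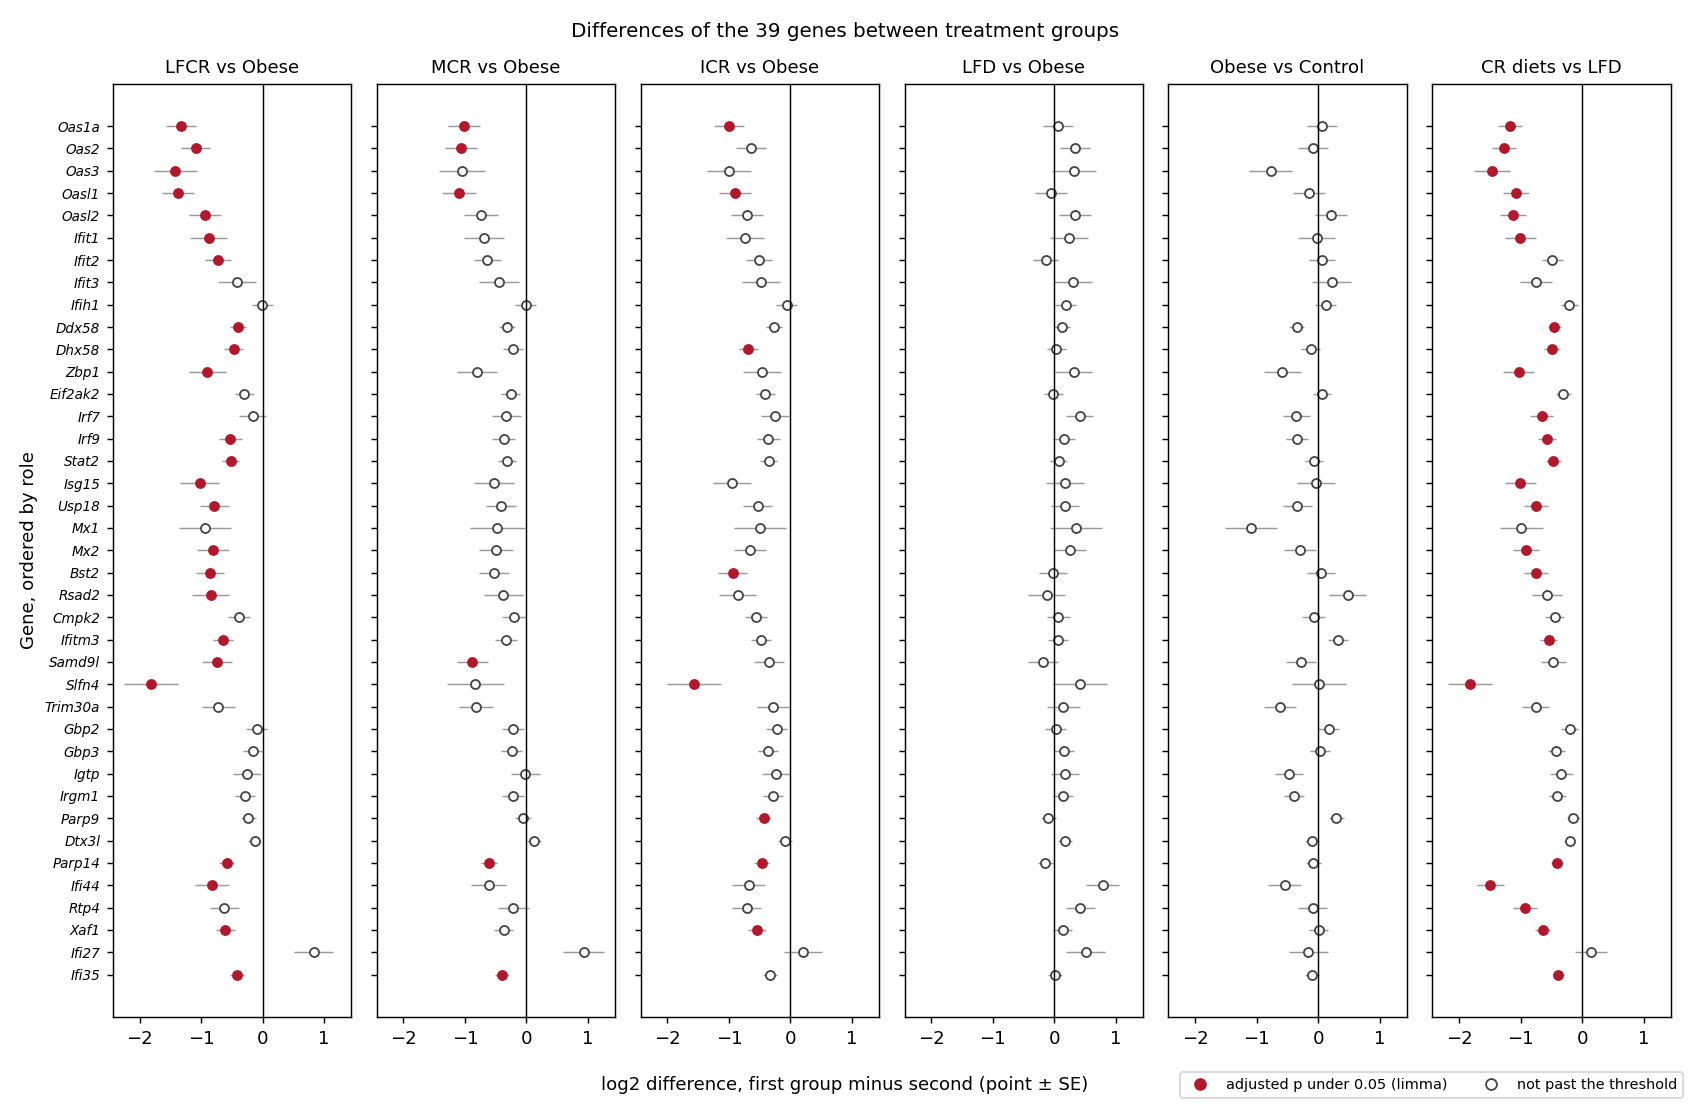
Log2 difference (point) and its SE (bar) of each of the 39 genes in 6 comparisons, first group minus second, with filled red points where the adjusted p of limma was under 0.05. Points lie left of 0 for 38 of 39 genes in LFCR against Obese and 38 of 39 in CR diets against LFD, and no point is filled in LFD against Obese or Obese against Control.

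The 2-5 oligoadenylate synthetases, which on double-stranded RNA make the messenger that activates RNase L, and their relatives were the group called most completely. All 5 (Oas1a, Oas2, Oas3, Oasl1, Oasl2) fell in LFCR against Obese, 3 fell in MCR (Oas1a, Oas2, Oasl1) and 2 in ICR (Oas1a, Oasl1). Oas1a (chr5:120896256-120907521, GRCm38) had 154, 170, 167, 234 and 281 normalized counts in LFCR, 162, 281, 208 and 399 in MCR, and 248, 222, 242, 230 and 335 in ICR. It had 493, 387, 561, 866 and 559 in LFD, 804, 578, 395, 375 and 603 in Obese, and 456, 541, 350, 801 and 475 in Control. Every LFCR and ICR library lay below every library of LFD, Obese and Control, the 3 unrestricted groups, and only MCR 4 overlapped them. Its log2 difference from Obese was -1.32 ± 0.24 in LFCR (SE, adjusted p = 0.000293), -1.01 ± 0.25 in MCR (0.00923) and -0.997 ± 0.24 in ICR (0.00845).

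Oas2, a larger synthetase at chr5:120730333-120749853 whose neighbour Oas3 lies 3244 bases away, was low in both LFCR and MCR. It had 746, 412, 380, 431 and 629 normalized counts in LFCR, 461, 587, 450 and 556 in MCR, and 726, 740, 505, 921 and 649 in ICR. Its counts were 1469, 859, 1436, 1964 and 1461 in LFD, 1389, 1328, 869, 752 and 1318 in Obese, and 1032, 1017, 748, 2035 and 1361 in Control. No LFCR or MCR library reached any library of LFD, Obese or Control, whereas ICR overlapped all 3 groups. The log2 difference from Obese was -1.09 ± 0.24 in LFCR (adjusted p = 0.00183), -1.07 ± 0.26 in MCR (0.00693) and -0.64 ± 0.24 in ICR (0.0974, not called).

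Oas3, the longest synthetase (chr5:120753098-120777661), had 93.7, 107, 58.6, 118 and 205 normalized counts in LFCR, 82.7, 294, 70.4 and 249 in MCR, and 138, 95.8, 194, 178 and 184 in ICR. In LFD it had 292, 263, 457, 653 and 565, in Obese 411, 438, 366, 235 and 258, and in Control 570, 702, 272, 1145 and 545. All LFCR and ICR libraries were below all unrestricted ones, while MCR split into a low pair (MCR 1 and 3) and a pair within the Obese range. Its difference from Obese was -1.42 ± 0.35 in LFCR (adjusted p = 0.00497), and those in MCR (-1.05 ± 0.38, 0.0683) and ICR (-0.997 ± 0.35, 0.0775) were not called.

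Oasl1 (chr5:114923240-114937915), a relative without synthetase activity that restrains Irf7 translation in the mouse, had 65.6, 85.4, 62.6, 90.7 and 138 normalized counts in LFCR, 63.9, 153, 94.3 and 142 in MCR, and 130, 101, 127, 149 and 137 in ICR. It had 201, 174, 271, 331 and 309 in LFD, 330, 294, 306, 172 and 230 in Obese, and 251, 287, 150, 598 and 308 in Control. Each of the 14 CR libraries lay below each of the LFD and Obese libraries. The log2 difference from Obese was -1.37 ± 0.26 in LFCR (adjusted p = 0.000403), -1.10 ± 0.27 in MCR (0.00877) and -0.90 ± 0.26 in ICR (0.027). Without MCR 1 the MCR call was lost (0.059).

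The Ifit genes encode proteins that hold foreign RNA, and Ifit2, Ifit3 and Ifit1 lie together on chromosome 19. Ifit1 fell by 0.88 and Ifit2 by 0.72 on the log2 scale in LFCR against Obese, and Ifit3, at -0.42, was not called. None of the 3 was called in MCR (-0.69 for Ifit1) or ICR (-0.74 for Ifit1) against Obese.

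Among the 5 cytosolic sensors, Ddx58 (RIG-I), Dhx58 (LGP2) and Zbp1 fell in LFCR against Obese. Ifih1 (MDA5) stood at -0.00 in LFCR, -0.01 in MCR and -0.06 in ICR, and Eif2ak2, the kinase PKR, was not called either. Dhx58 (chr11:100694884-100704271), which modulates the other RNA sensors, had 391, 461, 379, 457 and 539 normalized counts in LFCR, 492, 544, 497 and 583 in MCR, and 366, 378, 382, 346 and 423 in ICR. It had 493, 602, 634, 864 and 635 in LFD, 759, 649, 641, 493 and 596 in Obese, and 583, 685, 487, 1080 and 680 in Control. Here ICR was the lowest group, with all 5 libraries under every unrestricted library, whereas MCR lay within the Obese range apart from MCR 1 (492) at its lower edge. Dhx58 fell by 0.68 in ICR (SE 0.15, adjusted p = 0.0056) and by 0.47 in LFCR (SE 0.15, 0.0299) against Obese, and its MCR difference of -0.23 ± 0.16 (0.393) was not called.

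Ddx58 (chr4:40203773-40239828), which recognises RNA with a 5′ triphosphate, had 1858, 2000, 1959, 2144 and 2400 normalized counts in LFCR, 1990, 2979, 1790 and 2167 in MCR, and 2079, 1806, 2658, 2423 and 2477 in ICR. It had 3015, 2636, 2984, 3409 and 2947 in LFD, 2611, 3000, 3121, 2784 and 2235 in Obese, and 3654, 3643, 2764, 3946 and 3577 in Control. The LFCR libraries were all below LFD and Control and overlapped Obese through Obese 5. The difference from Obese was -0.40 ± 0.13 in LFCR (adjusted p = 0.024), and -0.32 ± 0.13 in MCR (0.127) and -0.27 ± 0.13 in ICR (0.202) were not called.

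Among the factors that carry the signal to the genome, Stat2 and Irf9 fell in LFCR against Obese, both by 0.52 on the log2 scale, while Irf7, the amplifier of type I interferon production, was not called (-0.16). None of the 3 was called in MCR or ICR against Obese. Isg15, a ubiquitin-like protein joined to other proteins, and Usp18, the protease that removes it, fell in LFCR (-1.02 and -0.79). Isg15 had 108, 110, 150, 126 and 160 normalized counts in LFCR against 558, 306, 239, 155 and 309 in Obese, so that only LFCR 5 exceeded the lowest Obese library.

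Of the 9 genes grouped here as restriction factors, 6 fell in LFCR against Obese (Mx2, Bst2, Rsad2, Ifitm3, Samd9l, Slfn4), 1 in MCR (Samd9l, by 0.88) and 2 in ICR (Bst2, Slfn4). With lane as a term Samd9l was called neither in LFCR (adjusted p = 0.0666) nor in MCR (0.064), where 4 of the 39 were then called. Slfn4 had the largest difference of the 39, -1.82 ± 0.44 in LFCR (adjusted p = 0.00375), and in ICR it fell by 1.56. It had 24.1, 27.0, 53.7, 52.1 and 57.3 normalized counts in LFCR, 69.1, 63.9, 60.1 and 366 in MCR and 84.3, 33.8, 47.4, 50.1 and 59.2 in ICR, against 550, 241, 120, 73.9 and 263 in Obese. MCR 4 alone among the CR libraries was within the upper Obese range. Bst2 (tetherin, chr8:71534255-71537456), which holds budding virus at the cell surface, had 447, 888, 754, 883 and 1011 normalized counts in LFCR, 827, 1175, 713 and 1256 in MCR, and 840, 739, 575, 504 and 1096 in ICR. It had 900, 1174, 1461, 2172 and 1517 in LFD, 1870, 1416, 1288, 1093 and 1501 in Obese, and 1210, 1594, 1144, 1570 and 1354 in Control. LFCR stood wholly below Obese and Control, and ICR 5 passed the lowest Obese library by a few counts. Bst2 fell by 0.85 in LFCR (SE 0.23, adjusted p = 0.00879) and by 0.94 in ICR (SE 0.23, 0.00995) against Obese, and its MCR difference was -0.53 ± 0.24 (0.16).

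Trim30a (chr7:104409025-104465193), a regulator of inflammatory signalling, had 1391, 1801, 1120, 1639 and 2258 normalized counts in LFCR, 1057, 3412, 1108 and 1190 in MCR, and 1953, 1524, 2622, 2490 and 2444 in ICR. In LFD it had 2333, 2647, 3323, 3243 and 3256, in Obese 2070, 3677, 3152, 2968 and 1807, and in Control 4052, 5352, 2805, 4811 and 3788. Its lowest Obese, LFD and MCR libraries were those poor in lymph node transcripts, and MCR 2, the MCR library rich in them, stood far above the other MCR libraries. Against Obese it was not called in LFCR (-0.72 ± 0.26, adjusted p = 0.0523), MCR (-0.83 ± 0.28, 0.0517) or ICR (-0.28 ± 0.26, 0.573).

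The interferon-inducible GTPases, which attack the vacuoles of intracellular pathogens and answer mainly to type II interferon, were not called in any CR diet against Obese. Gbp2, Gbp3, Igtp and Irgm1 stood at -0.09, -0.16, -0.25 and -0.28 in LFCR. Igtp had 668, 1110, 949, 1674 and 1437 normalized counts in LFCR against 1338, 1372, 1372, 1495 and 1115 in Obese, which overlapped. Parp14, an ADP-ribosyltransferase, fell in all 3 CR diets. Parp14 (chr16:35832874-35871544) had 4016, 3658, 4050, 3938 and 4496 normalized counts in LFCR, 3612, 5331, 3171 and 3994 in MCR, and 4095, 3774, 4976, 4507 and 4636 in ICR. It had 5470, 4969, 5471, 6412 and 5144 in LFD, 6756, 6514, 5969, 5433 and 5672 in Obese, and 6143, 7621, 4949, 7502 and 6146 in Control. All 14 CR libraries lay below all 5 Obese libraries, with small differences of -0.59 ± 0.12 in LFCR (adjusted p = 0.00112), -0.61 ± 0.13 in MCR (0.00311) and -0.46 ± 0.12 in ICR (0.0159). Of its neighbours Parp9 and Dtx3l, which act as a pair, Parp9 fell in ICR (by 0.43) and was not called at -0.23 in LFCR and -0.05 in MCR. Dtx3l was at -0.13, 0.12 and -0.09 in LFCR, MCR and ICR, with no call.

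Ifi44 (chr3:151730922-151749960), a cytosolic protein widely used as an interferon marker, had 137, 148, 191, 157 and 188 normalized counts in LFCR, 155, 175, 143 and 345 in MCR, and 152, 130, 269, 171 and 218 in ICR. It had 627, 290, 515, 938 and 561 in LFD, 429, 343, 277, 212 and 314 in Obese, and 395, 407, 275, 741 and 627 in Control. LFCR was wholly below Obese, and LFCR and ICR were wholly below LFD and Control. Against Obese it fell by 0.82 in LFCR (SE 0.27, adjusted p = 0.0294), a call lost without Obese 1, Obese 2, LFCR 1, LFCR 2 or LFCR 4 (highest adjusted p 0.0782). It was not called in MCR (-0.61 ± 0.29, 0.17) or ICR (-0.68 ± 0.27, 0.116). Xaf1, which opposes inhibitors of apoptosis, fell in LFCR (by 0.60) and ICR (by 0.54), Ifi35 in LFCR (by 0.42) and MCR (by 0.40, a call lost with lane as a term, adjusted p = 0.0729), and Rtp4, at -0.62 in LFCR, was not called.

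Ifi27, singled out after its values were seen, was the exception in sign. It had 5128, 9636, 9978, 9035 and 7704 normalized counts in LFCR, 10888, 5690, 9514 and 9517 in MCR, and 6705, 6914, 3738, 3691 and 6201 in ICR. It had 3394, 7166, 5415, 9266 and 9244 in LFD, 6697, 3370, 3863, 3843 and 5721 in Obese, and 3079, 2840, 6691, 8041 and 7062 in Control. The log2 differences of 0.83 ± 0.31 in LFCR (adjusted p = 0.0604) and 0.93 ± 0.33 in MCR (0.0677) against Obese were not called. In LFCR it was called higher without the 8 libraries poor in lymph node transcripts (1.24, adjusted p = 0.0235) and with Glycam1 under 9 as a term (0.83, 0.0466).

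**Figure D3:**
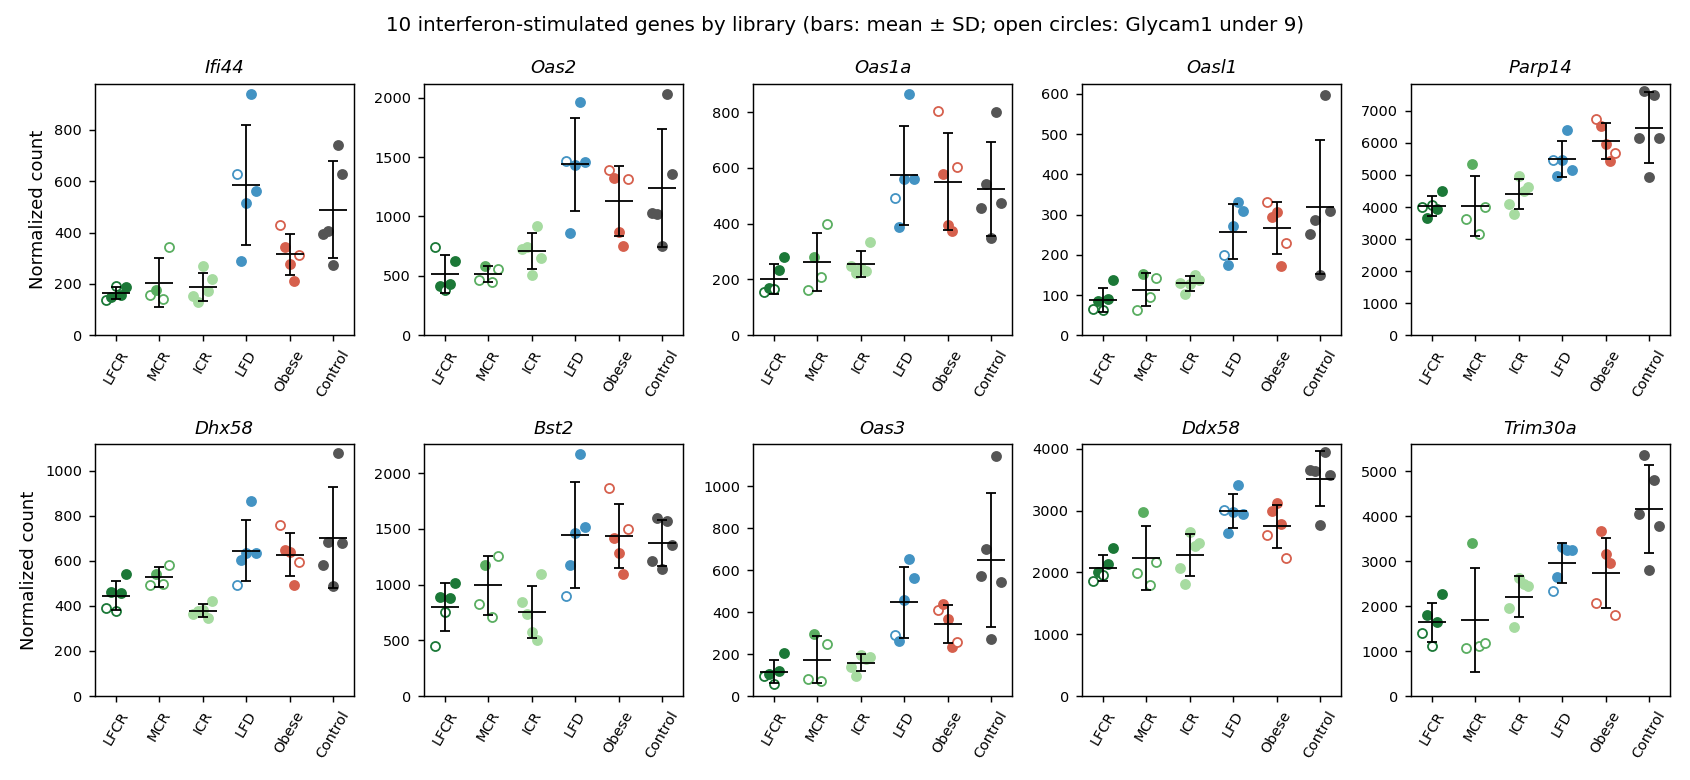
Normalized counts of 10 genes in each library (points), by group, with the mean and SD (bars); open circles are libraries with a Glycam1 value under 9. In Oasl1 the LFCR, MCR and ICR points all lie under the LFD and Obese points, and in Parp14 under the Obese points.

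Set against LFD, in which mice also lost weight, the mean of the 3 CR diets called 23 of the 39 lower, where 1.65% of all genes tested were lower. The median log2 difference was -0.57 beside -0.02 over all genes, and 38 of 39 were negative. The 5 genes of the synthetase group (synthetases and relatives) were again all called, with differences from -1.07 for Oasl1 to -1.47 for Oas3. Slfn4 (-1.83) and Ifi44 (-1.49 ± 0.22, adjusted p = 0.0014) had the lowest values. Oas2 (-1.27 ± 0.20, 0.00177) and Oas1a (-1.17 ± 0.20, 0.00452) had the smallest adjusted p after Ifi44. The factors Irf7, Irf9 and Stat2 all fell here (-0.66, -0.57 and -0.47). Bst2 fell by 0.75, and Trim30a (-0.76 ± 0.22, 0.0511), Mx1 (-0.99) and the 4 GTPases were not called. The count was 8 without LFD 4, 9 without LFD 3, 12 without LFD 1, and 15 without LFD 5 or MCR 3. It was 0 without the 8 libraries poor in lymph node transcripts, which leave MCR with 1 library. With MCR also left out, a choice made after the data were seen, 7 genes were called (Bst2, Ifi35, Ifi44, Oas1a, Oas2, Oas3, Slfn4), and the median difference was -0.63. Within the 5 sequencing lanes that held both kinds, the median difference of the 39 genes ran from -0.42 to -0.90, with 36 to 39 of the genes negative. With lane as a term, 12 were called. The shares of all genes called with libraries left out or with lane as a term are not given here.

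Against Control, the lean mice, the CR diets called 27 of the 39 lower in LFCR (18.0% of all genes), 18 in MCR (15.7%) and 19 in ICR (0.882%). The median differences were -0.72, -0.57 and -0.64, beside -0.03, -0.01 and -0.03 over all genes, and these comparisons share the 5 Control libraries. Every LFCR library lay below every Control library in 17 genes, as in 8.88% of all genes. The same held in 2 genes for MCR (2.71%) and in 15 for ICR (2.95%). Oas3 fell in all of them, at -2.19 ± 0.35 in LFCR (SE, adjusted p = 0.000366), -1.82 ± 0.38 in MCR (0.00594) and -1.77 ± 0.35 in ICR (0.00853). Ddx58 likewise stood at -0.75 ± 0.13 in LFCR (0.000444), -0.67 ± 0.13 in MCR (0.00586) and -0.62 ± 0.13 in ICR (0.00941). For Trim30a the values were -1.33 ± 0.26 in LFCR (0.00113), -1.44 ± 0.28 in MCR (0.00555) and -0.90 ± 0.26 in ICR (0.0481), all called. Irgm1 fell in all 3 diets (-0.67 in LFCR, -0.61 in MCR and -0.67 in ICR) and Igtp in LFCR (by 0.73). The ICR count was 10 without Control 4, 8 without Control 5, 6 without ICR 4, 5 without Control 1 or ICR 1, 4 without Control 2 and 3 without ICR 2. The MCR count was 9 without MCR 1 and 7 without MCR 3. Without the 8 libraries poor in lymph node transcripts the counts were 22 for LFCR and 26 for ICR. MCR then had 1 library, and its differences were smaller, at -0.25 for Trim30a, -0.23 for Ddx58, -0.13 for Irgm1 and -0.94 for Oas3. With Glycam1 under 9 as a term of the fit to all libraries, MCR called 2 of the 39 (Oas2, Parp14). The shares of all genes called in these other fits are not given here. In lane 4 the median MCR difference was 0.10.

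The F-test among LFCR, MCR and ICR called 0 of the 39 and 0.00% of all genes, with 2 of the 39 under an unadjusted p of 0.05, and voom called 0. With array quality weights it called 7 (Dhx58, Dtx3l, Ifi27, Parp9, Rsad2, Samd9l, Trim30a), and without MCR 2 it called 1 (Samd9l). The shares of all genes called in those fits are not given here. A p that misses the threshold does not show that the diets act alike, and the values of Dhx58 and Oas2 above were spread in different orders.

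Of the interferon genes themselves little was read. Of 21 ligand genes looked up, 6 had a row and only Ifng passed the minimum, with means of 5.52 normalized counts in LFCR, 5.58 in MCR, 6.11 in ICR, 11.2 in LFD, 7.08 in Obese and 16.4 in Control. Ifng was called only in LFCR against Control, where it fell by 0.71. Only its LFD and Control means exceeded the minimum count of 10, so it may have passed through groups where it was high. Nothing is concluded from this call of a gene near the floor. Of 6 receptor genes, 1 fell in LFCR (9.42% of all genes), 3 in MCR (5.69%) and 1 in ICR (5.23%) against Obese. Ifnar2 had 2295, 2249, 2382 and 1958 normalized counts in MCR and 2023, 1904, 2342, 2329 and 2161 in ICR, against 2827, 2591, 2577, 2809 and 2954 in Obese. It lay wholly below Obese in both diets, and it fell in MCR (-0.31) and ICR (-0.35). Ifngr2, a subunit of the type II receptor, fell in LFCR (-0.51) and MCR (-0.61). Of 10 signalling genes, 2 fell in LFCR against Obese (Socs3, Stat3) and 0 were called in MCR or ICR.

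Upstream of interferon, 4 of 13 sensing genes were called in LFCR against Obese (3 lower, 1 higher), 2 in MCR (1 lower, 1 higher) and 1 in ICR (higher). The gene that rose in each was Mavs, the mitochondrial adaptor of Ddx58 and Ifih1, by 0.64 in LFCR, 0.33 in MCR and 0.39 in ICR on the log2 scale. It averaged 2170 ± 157 normalized counts in LFCR (n = 5), 1753 ± 164 in MCR (n = 4) and 1832 ± 143 in ICR (n = 5), against 1386 ± 79.0 in Obese (SD, n = 5). Tlr7, an endosomal RNA sensor, fell by 1.09 in LFCR and in MCR. None of 5 other interferon regulatory factors was called against Obese in any CR diet. Of 10 class I antigen presentation genes, 2 fell in ICR against Obese (H2-D1 by 0.36, Tapbp by 0.33) and 0 in LFCR or MCR. Beside the lower calls in these lists, 9.42% of all genes tested were lower in LFCR, 5.69% in MCR and 5.23% in ICR. The share of all genes called higher is not given here, so the calls of Mavs have no background. None of 6 class II genes was called against Obese, although their median differences were -0.80 in LFCR and -1.09 in MCR.

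The 39 genes were also compared across the split by Glycam1. The mean of the 39 genes was -0.54 in the 2 low LFCR libraries and -0.34 in the 3 others, and 0.33 in the 2 low Obese libraries and 0.13 in the 3 others. It was -0.29 in the 3 low MCR libraries and -0.07 in MCR 2, and 0.26 in LFD 1 and 0.40 in the other LFD libraries. Without the 8 libraries the median difference of the 39 genes against Obese was -0.44 in LFCR (-0.62 with all libraries), -0.44 in ICR (-0.48) and, with 1 library left, -0.16 in MCR (-0.40). In CR diets against LFD it was -0.56 (-0.57 with all libraries). With Glycam1 under 9 as a term of the fit, 28 of the 39 were called in LFCR (27 lower, and Ifi27 higher), 8 in MCR and 19 in ICR against Obese, and 28 in CR diets against LFD, the last 3 counts all lower. The shares of all genes called under that fit are not given here.

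Macrophage transcripts moved in the same direction as the 39 genes in the comparisons with Obese. The 11 macrophage markers summed to between 13292 and 36776 normalized counts in LFCR, 19627 and 37327 in MCR, 30929 and 38473 in ICR, 33793 and 42757 in LFD, 38382 and 52742 in Obese, and 33483 and 68865 in Control, and none was at 0 in any library. Against Obese, 8 of the 11 fell in LFCR (9.42% of all genes), 5 in MCR (5.69%) and 4 in ICR (5.23%). In CR diets against LFD 1 of the 11 fell (1.65% of all genes). Against Control 7 of the 11 fell in LFCR (18.0% of all genes), 3 in MCR (15.7%) and 0 in ICR (0.882%). The mean of the list was 10.43 (log2) in LFCR, 10.53 in MCR and 10.91 in ICR, against 11.02 in Control. Of 5 neutrophil genes tested, 2 fell in LFCR, 1 in MCR and 2 in ICR against Obese, and of 6 endothelial genes 1, 1 and 2 fell. None of 8 B cell, 10 T and NK cell, 6 plasmacytoid dendritic cell or 7 lymph node genes was called in any of these, in libraries that differ widely in lymph node content. Summed counts of the dendritic cell list, whose cells are known as strong producers of type I interferon, ran from 8793 to 9881 in LFCR, 8455 to 10655 in MCR, 8408 to 11334 in ICR and 8521 to 10772 in Obese. A sum follows the most abundant genes of a list, whereas a mean of log2 values weighs each gene alike. The mean log2 value of this list varied more, from 7.18 to 9.22 in LFCR, 7.16 to 9.73 in MCR and 7.11 to 9.58 in Obese. In these 3 groups its lower values were those of the libraries poor in lymph node transcripts. In ICR it ran from 8.42 to 9.41. The 7 mature adipocyte genes summed to between 507794 and 948877 normalized counts in LFCR, 315599 and 783884 in MCR, 458785 and 702478 in ICR, 407323 and 489489 in LFD, 358675 and 792617 in Obese, and 149843 and 387822 in Control. Against Control 6 of them were higher in LFCR, 5 in MCR and 4 in ICR, and 0 were called in CR diets against LFD. The share of all genes called higher is not given here, so these counts have no background. The part of fat cell content in the lower values of the 39 genes was not tested. Fcgr1, on the macrophage list, is itself known to respond to interferon. With the mean of the list as a covariate the median difference of the 39 genes was -0.48 in LFCR, -0.30 in MCR and -0.41 in ICR against Obese and -0.55 in CR diets against LFD. Calls then numbered 0 in LFCR, 0 in MCR, 2 in ICR (Bst2, Dhx58) and 3 in CR diets against LFD (Ifi44, Oas1a, Oas2). Against Control they numbered 23 in LFCR, 15 in MCR and 19 in ICR. The shares of all genes called with this covariate are not given here. The 6 skeletal muscle genes reached sums of 40114 normalized counts in Obese, 25984 in LFD and 13936 in LFCR. Their highest sums were 7690 in ICR, 5413 in MCR and 1391 in Control. Obese 2 had the highest mean of this list, at 12.3 (log2). The part of other cell types, muscle among them, in the lower values was not tested beyond these covariates.

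**Figure D4:**
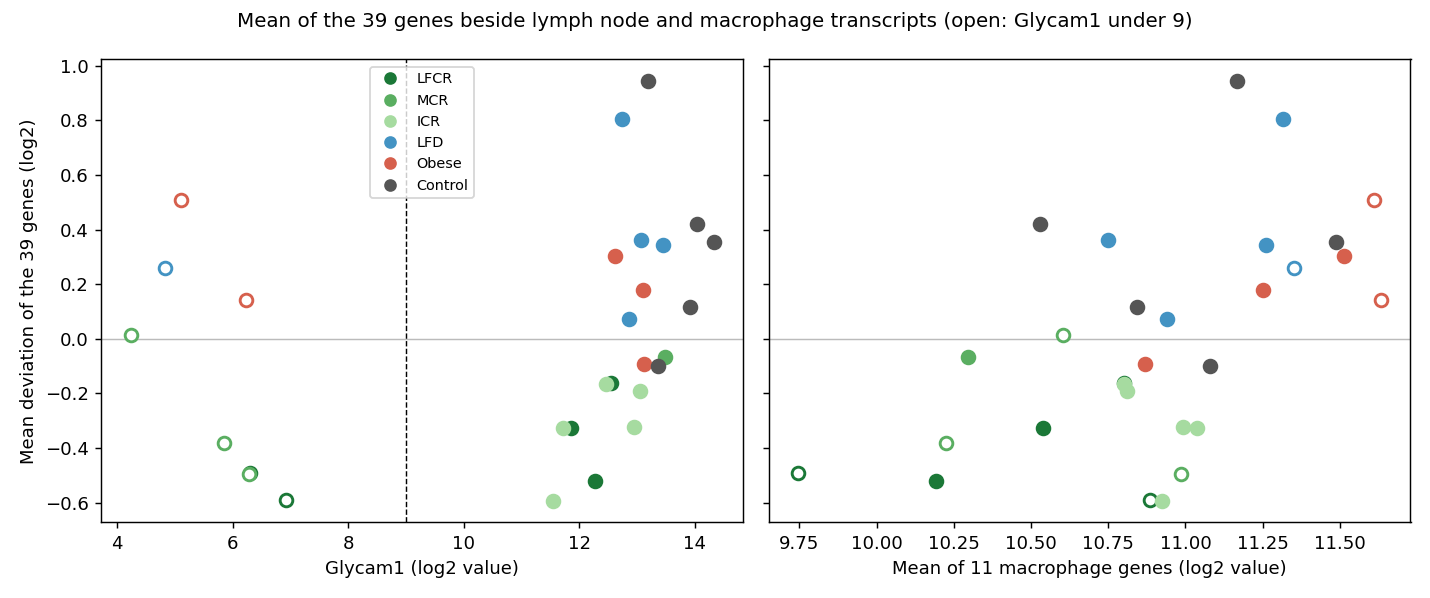
Mean of the 39 genes in each library (vertical axis, log2 deviation from each gene's mean) against Glycam1 (left, log2, dashed line at 9) and against the mean of 11 macrophage genes (right, log2), with open circles for Glycam1 under 9. LFCR and MCR points lie at or below 0.01 on either side of the Glycam1 line, and Obese and LFD points on either side of it lie mostly above 0.

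The libraries held between 16403903 and 49026986 recovered reads. Among libraries of 1 lane, Obese against Control had medians of the 39 genes from -1.06 to 0.42, LFCR against Control from -0.65 to -1.30 and ICR against Control from -0.47 to -1.11. Luminal epithelial genes summed to between 23004 and 34084 normalized counts in LFCR, 30815 and 35760 in MCR, and 27043 and 49361 in ICR. Their sums lay between 21946 and 103130 in LFD, 14179 and 26684 in Obese, and 18760 and 62872.5 in Control. Medians were 26037 in LFCR, 34210 in MCR and 35895 in ICR, against 64118 in LFD. The part of epithelial content in the lower values of the 39 genes was not tested. Against Obese, within lanes, the median difference of the 39 genes ran from -0.33 to -0.93 in LFCR, from -0.19 to -0.89 in MCR and from -0.08 to -0.77 in ICR. Exons of Dtx3l and Parp9 share 458 bases on opposite strands, and those of Igtp share 162 bases with Irgm2 on the same strand, so their counts may not be fully separate. Oas1a, Ifit3, Slfn4, Trim30a and the Gbp genes have close relatives in the mouse genome, which makes their separate values less certain. Apart from their separate titles nothing states that libraries came from separate mice, and the p-values speak only for the variation among the libraries.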

How the data were processed

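Total RNA was extracted with TRIzol, made into stranded total RNA libraries and sequenced as paired reads on a HiSeq 2000, per the labels' protocols. Reads were handled with TopHat2 2.0.7, HTSeq 0.5.3p9 and DESeq2 against mm10, per the submitters' processing notes. The DESeq2 version, gene models and counting settings were not given in the sources used here. A single table of log2 values was deposited by the authors for 30818 genes in 29 libraries, with 0 columns left unused. Undoing a variance-stabilising transform whose lowest value, 3.75, stands for 0 reads gave whole reads (tolerance 0.01) for 100% of values in every library. That the transform is of this kind is read from the values. It compresses low counts, so log2 differences understate changes of low genes. Depth covers counting error only.

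limma 3.58.1 (R 4.3.3) fitted 1 mean per group to the deposited log2 values over all 29 libraries, with trend and robust moderation. P-values were Benjamini-Hochberg adjusted over the 19387 genes with a normalized count of 10 or more in at least 4 libraries, at 0.05. No count test was run, because the deposited unit is log2. Values in each library are given for Ifi44, Oas2 and the 3 members with the smallest adjusted p in each comparison that called one, and for a few genes chosen after their values were seen. The members and lists were chosen with earlier results of these data known. Alternatives were quantile normalization, no minimum, voom on recovered reads, other sample sets, lymph node, B cell, macrophage and lane terms, array weights and leaving out each library. Exons come from GENCODE vM21 (GRCm38). A gene that met the rule for pathway genes is not reported here.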

Additional observations from a re-analysis of the deposited data

Results flagged for a closer look

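Among the 10 genes given in each library and the mean of the 39 genes, 66 sets of 4 or 5 libraries of a group were examined for a single library far from the others, and 3 were found. Chance alone is expected to give about 5% of such sets. Trim30a was high in MCR 2, with 3412 normalized counts, and the gap to the next MCR library took 0.9 of the range of the group. Oas1a was high in ICR 5, with 335 normalized counts and a gap of 0.735 of the range. Ddx58 was low in Control 3, with 2764 normalized counts and a gap of 0.724 of the range. MCR 2 is also the one MCR library with Glycam1 above 9, and the part of lymph node content in its Trim30a value was not tested.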

How the results depend on the processing

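No paired analysis was possible because every title carries its own replicate number and no number is shared between groups; sequencing lane was used as a term instead. Counts are of the 39 genes called, and the shares of all genes called under these alternatives are not given here. Obese against Control gave 1 with quantile normalization (Ddx58), voom (Mx1) or only the groups compared (Igtp). MCR against Control gave 0 with only the groups compared, 0 without the 8 libraries with Glycam1 under 9, 2 with Glycam1 as a term and 3 with the B cell covariate. Without those 8 libraries LFCR against Obese gave 9 (8 lower, 7 of them among the 24, and Ifi27 higher), MCR 0 with 1 library left, ICR 5 (3 of them among the 8) and CR diets against LFD 0, or 7 without MCR as well. Glycam1 as a term gave 1 (Ifi44) in LFD against Obese and 19 in ICR against Obese, and the B cell covariate 1 (Ifi44) and 21. The macrophage covariate gave 0 in LFCR, 0 in MCR and 2 in ICR against Obese and 3 in CR diets against LFD. Lane as a term gave 12 in CR diets against LFD and 4 in MCR against Obese. Array weights gave 3 in LFD against Obese (Ifi27, Ifi44, Irf7), 19 in MCR and 21 in ICR against Obese, and 7 among the CR diets. The cause of these shifts was not tested, except that fewer libraries remain where the 8 are left out.

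Leaving out 1 library at a time gave 0 to 1 in Obese against Control, 0 to 0 in LFD against Control, 0 to 1 in LFD against Obese, 15 to 25 in LFCR, 2 to 14 in MCR and 3 to 16 in ICR against Obese. It gave 24 to 29 in LFCR, 7 to 22 in MCR and 3 to 24 in ICR against Control, 8 to 27 in CR diets against LFD, 27 to 32 among the 6 groups and 0 to 1 among the CR diets. Against Obese, LFCR gave 15 without LFCR 1 or Obese 2. MCR gave 2 without MCR 1 and 14 without MCR 2. ICR gave 3 without ICR 2 or Obese 1, 5 without ICR 1 and 16 without Obese 4. The Oas2 difference of Obese from Control ran from -0.25 to 0.11, turning to 0.11 without Control 4 and 0.04 without Obese 4, and was never called. Of 398 values of the named genes with 1 library left out, 384 kept their direction and side of the threshold, and of 383 under the other alternatives 343 did.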
